A study of Homo sapiens with 12 samples.

Results

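The genes described here encode the proteins of the cytosolic ribosome. They are the protein-coding genes of GENCODE release 44 whose symbol is RPL or RPS followed by a number, with an optional A, X, L or L1 ending, together with RPLP0, RPLP1, RPLP2 and RPSA, and without the RPS6K genes and RPS19BP1. This rule, which uses no measured value, found 84 of the 20046 protein-coding genes. Of these ribosomal protein (RP) genes, 52 belong to the large 60S subunit and 32 to the small 40S subunit. For each gene, all listed regions that overlapped the 2-kb window centered on its transcription start site (TSS) were taken, which gave 326 of the 158028 regions in the data.

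H2A.Z and its acetylated form (H2A.Zac) were profiled by chromatin immunoprecipitation sequencing (ChIP-seq) in K562, an established human line from chronic myeloid leukemia. Endogenous EP400 carries a degron tag on both the WT and the ΔTRRAP background, and every culture received 500 nM dTAGV-1 for 24 h to remove it. The cells instead relied on exogenous EP400 expressed from the AAVS1 locus, either WT or lacking the SANT and HD domains that hold TRRAP (ΔTRRAP), and each line is 1 clone. Each line has 2 replicates of input, of H2A.Z ChIP and of H2A.Zac ChIP, 12 libraries in all, and the comparison asks what happens to both marks when TRRAP can no longer join the TIP60 complex. The authors merged the replicates and deposited, per mark, the regions higher in WT (lost in ΔTRRAP), higher in ΔTRRAP (gained) and unchanged, each with a log10 likelihood ratio between the lines. This ratio is at least 3 for a changed region and depends on read depth as well as on the difference, so it cannot be read as a fold. The lists hold no value per library, so from them the depth is unknown, no spread between replicates can be stated and the lines were not tested against each other.

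The ribosome is built from ribosomal RNA and a fixed set of proteins, each needed in about equal amounts, and RP genes are among the most heavily transcribed genes of dividing cells. Most are short genes with a compact promoter whose transcripts start with a cytosine followed by a run of pyrimidines, the terminal oligopyrimidine (TOP) tract that lets cells adjust translation of these messages together. H2A.Z is a histone variant found in the nucleosomes on both sides of active start sites, and the TIP60 complex both exchanges and acetylates it.

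The start sites of 6 members on which the results turn are shown with the 50 bases before the first transcribed base of the RefSeq entry (GRCh38.p14) and the 15 bases that begin with it, read 5′ to 3′ on the strand of the gene. Capitals mark the cytosine at the first base and the pyrimidines that follow it without a break. RPS25 (chr11:119018329-119018393, minus strand) had the highest likelihood ratio for gained H2A.Z among the RP genes. RPL24 (chr3:101686704-101686768, minus strand) gained H2A.Zac with H2A.Z unchanged. RPS14 (chr5:150449725-150449789, minus strand) and RPL22L1 (chr3:170870181-170870245, minus strand) gained both marks, as RPS25 did. RPS19 (chr19:41860205-41860269, plus strand) had a lost H2A.Zac region. RPL22 (chr1:6199581-6199645, minus strand) differed between its TSS definitions.
RPS25: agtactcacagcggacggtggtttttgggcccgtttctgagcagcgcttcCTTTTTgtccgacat
RPL24: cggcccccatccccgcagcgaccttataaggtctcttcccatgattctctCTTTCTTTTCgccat
RPS14: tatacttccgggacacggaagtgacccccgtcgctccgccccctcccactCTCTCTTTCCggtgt
RPL22L1: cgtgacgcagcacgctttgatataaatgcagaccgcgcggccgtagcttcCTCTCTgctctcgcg
RPS19: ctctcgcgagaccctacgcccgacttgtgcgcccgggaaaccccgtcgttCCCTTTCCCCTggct
RPL22: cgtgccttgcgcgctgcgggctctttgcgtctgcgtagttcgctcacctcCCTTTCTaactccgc

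RefSeq promoter entries were found for 67 of the 84 RP genes and for 15345 protein-coding genes in all, each 300 bases long (250 before and 50 after the start). A cytosine at the first base followed by at least 4 pyrimidines was present in 43 of 67 RP promoters (64.2%) and in 4.65% of all promoters. When the run could begin within 5 bases of the first base, the shares were 51 of 67 (76.1%) and 22.2%. The YY1 core word ATGGCG, searched on both strands, occurred in 24 of 67 RP promoters (35.8%) and in 14.4% of all. The ETS factor word CCGGAAG occurred in 23 of 67 (34.3%) and in 14.4% of all. For the SP1 word GGGCGG the order was the opposite, with 36 of 67 (53.7%) against 59.2%. CCAAT was found in 22 of 67 (32.8%) against 36.6%, and TATAAA in 7 of 67 (10.4%) against 9.63%. None of these words contains another of them. The GC content of the RP promoters had a median of 59.3%, against 63.0% for all promoters. A word match describes the sequence and does not show a bound factor.

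Gains prevailed at the RP genes in both marks. Within 1 kb of the TSS, 62 of 84 RP genes had a gained H2A.Zac region (73.8%), against 34.7% of all protein-coding genes, and 12 had a lost one (14.3%), against 16.8%. For H2A.Z, 30 of 84 had a gained region (35.7%), against 13.0% of all protein-coding genes, and 2 had a lost one (2.38%), against 6.63%. The RP genes also had a listed region more often, with H2A.Z of any class at 74 of 84 (88.1%) but at 12033 of the 20046 protein-coding genes. Among genes with a listed region of the mark, the gained share was 40.5% for H2A.Z, against 21.6%, and 78.5% for H2A.Zac, against 55.7%. These shares are descriptions of lists that come from the same merged libraries, and the difference between the RP genes and the other genes was not tested.

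Gained and unchanged regions were listed in the same windows. An unchanged H2A.Z region was listed at 70 RP genes (83.3%, against 57.4% of all protein-coding genes) and an unchanged H2A.Zac region at 76 (90.5%, against 55.8%). The median RP window had 738 bp covered by gained and 1069 bp by unchanged H2A.Zac regions, against 0 and 481 bp over all protein-coding genes. Regions of different lists can overlap, and some lie wholly inside a region of another list, so these lengths are not exclusive. At RPS24 the gained H2A.Zac region, from 428 to 883 bp, lay inside an unchanged region from -958 to 986 bp. Both marks were gained at 28 RP genes (33.3%), against 10.3% of all protein-coding genes. At 29 further genes H2A.Zac was gained while all listed H2A.Z regions were unchanged (34.5%, against 21.1% of all protein-coding genes). At 5 genes, RPL8, RPL18, RPL38, RPS16 and RPS23, H2A.Zac was gained with no H2A.Z region listed (5.95%, against 2.27%). Of the 30 RP genes with gained H2A.Z, 28 also gained H2A.Zac (93.3%, against 79.6% of all protein-coding genes with gained H2A.Z), the others being RPS13 and RPL36A. With the TSS used here, no RP gene had both marks lost, against 5.34% of all protein-coding genes. RPL6 had both lost upstream of the start of its canonical transcript.

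**Figure D1:**
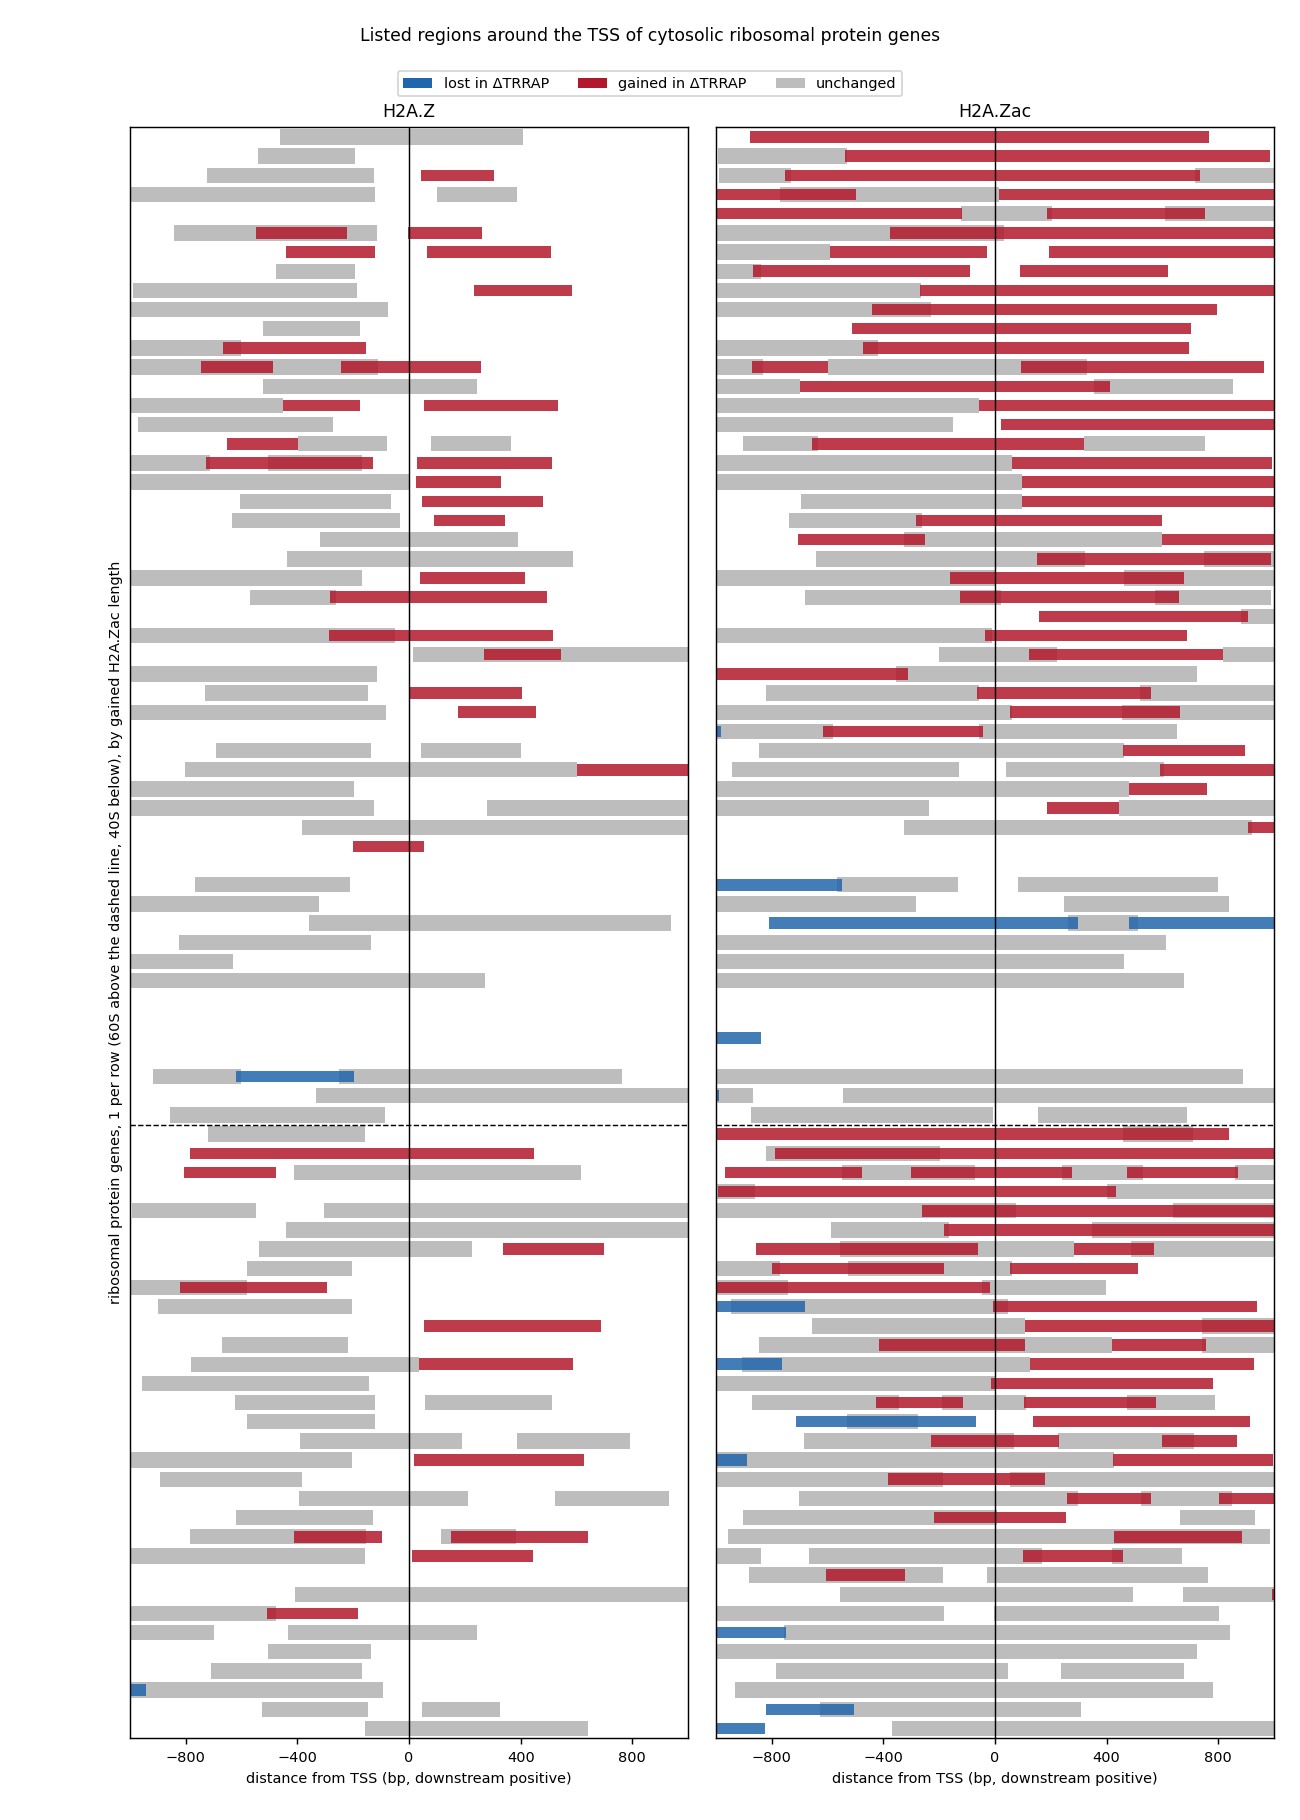
Listed H2A.Z (left) and H2A.Zac (right) regions in the 2-kb window around the TSS of each of the 84 RP genes, 1 gene per row, with 60S genes above the dashed line and 40S genes below it, each ordered by the length of gained H2A.Zac in the window; the x axis is the distance from the TSS in bp, and blue, red and grey bars are lost, gained and unchanged regions. Grey H2A.Z bars lie mostly to the left of the TSS and red bars more often to the right, while blue bars are few and sit mostly at the far left.

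Unchanged H2A.Z at the RP genes was mostly upstream of the TSS. Of 83 unchanged H2A.Z regions, 52 ended before the TSS (62.7%), 21 spanned it and 10 lay wholly downstream (12.0%). Over all protein-coding genes, 25.4% of the unchanged H2A.Z regions ended before the TSS and 27.3% lay wholly downstream. Gained H2A.Z showed the reverse order at the RP genes, with 18 of 36 gained regions wholly downstream (50%), 7 over the TSS and 11 upstream. Gained regions of all protein-coding genes had a similar split, with 48.1% downstream. By gene, 18 RP genes had gained H2A.Z wholly downstream, against 7.19% of all protein-coding genes, and 11 had it wholly upstream, against 5.07%.

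At 300 bp upstream of the TSS, 60 of 84 RP genes had an unchanged H2A.Z region (71.4%), against 40.5% of all protein-coding genes. At 200 bp downstream the order was the opposite, with 25 RP genes (29.8%) against 48.0%. Gained H2A.Z regions at this downstream position were listed at 20 RP genes (23.8%), against 4.44% of all genes, and at the upstream position at 9 (10.7%), against 3.85%. H2A.Z of any class was thus present 200 bp downstream at 44 RP genes (52.4%) and at 52.4% of all protein-coding genes, but the RP genes held a larger part of it in the gained list. The shares were equal at this position only. At 400 bp downstream H2A.Z was listed at 34 RP genes (40.5%), against 49.4%, and 200 bp downstream of the canonical TSS at 43 (51.2%), against 56.4%. At the TSS base itself, 28 RP genes (33.3%, against 40.1% of all genes) had an H2A.Z region, 7 of them a gained one (8.33%, against 2.83% of all genes) and none a lost one (against 1.62%). When distances were counted from the TSS of the canonical transcript, unchanged H2A.Z was highest 400 bp upstream, at 63 genes (75%, against 45.3% of all protein-coding genes), and gained H2A.Z was highest 200 bp downstream, at 24 genes (28.6%, against 5.03%).

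Unchanged H2A.Zac was less one-sided. Of 116 unchanged H2A.Zac regions, 34 lay upstream (29.3%), 48 over the TSS (41.4%) and 34 downstream (29.3%), against 25.1%, 49.1% and 25.8% over all protein-coding genes. Counted at single positions, unchanged H2A.Zac was listed 300 bp upstream at 60 RP genes (71.4%) and 200 bp downstream at 33 (39.3%), against 34.8% and 37.4% of all protein-coding genes. Gained H2A.Zac was listed at 24 RP genes (28.6%) at the upstream position and at 46 (54.8%) at the downstream one, against 14.6% and 19.3%. Of the 76 gained H2A.Zac regions, 34 lay wholly downstream (44.7%), 28 spanned the TSS and 14 lay upstream (18.4%). By gene, a gained H2A.Zac region lay wholly downstream at 33 (against 16.4% of all protein-coding genes), over the TSS base at 28 (33.3%, against 15.4%) and wholly upstream at 14 (against 10.6%). The midpoints of gained regions had a median of 333 bp for H2A.Zac and 175.5 bp for H2A.Z, both downstream of the TSS.

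**Figure D2:**
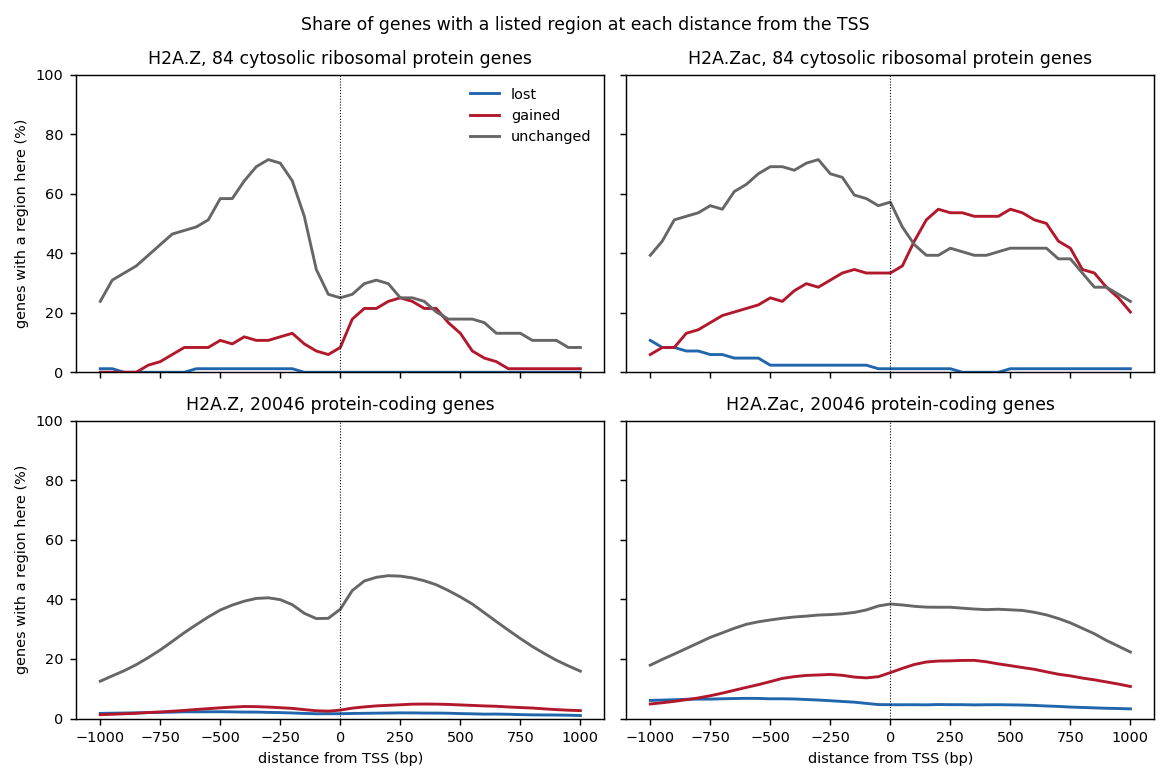
Share of genes (y axis, %) with a lost (blue), gained (red) or unchanged (grey) region at each distance from the TSS (x axis, bp), for the 84 RP genes (top) and all 20046 protein-coding genes (bottom) and for H2A.Z (left) and H2A.Zac (right). At the RP genes unchanged H2A.Z reached 71.4% at 300 bp upstream and was 29.8% at 200 bp downstream, where gained H2A.Zac reached 54.8%.

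Lost H2A.Zac, found at 14.3% of RP genes and 16.8% of all protein-coding genes, lay mostly upstream. Of the 13 lost H2A.Zac regions at RP genes, 11 ended before the TSS (84.6%), against 51.3% of lost H2A.Zac regions over all protein-coding genes, and 10 ended more than 500 bp upstream. By gene, 11 RP genes had H2A.Zac lost wholly upstream (against 9.44% of all protein-coding genes) and 1, RPL22, over the TSS base (against 4.65%). Both lost H2A.Z regions, at RPL6 and RPS3, were upstream, where 3.5% of all protein-coding genes had one. At RPS3, a 40S protein that also acts in DNA repair, the lost region reached from -1209 to -944 bp and had a ratio of 3.39, close to the cutoff. At RPL6 the lost region, from -621 to -198 bp with a ratio of 4.46, lay in a window that also holds the TSS of PTPN11 on the opposite strand. At 5 genes, RPL18, RPS10, RPS15, RPS3A and RPSA, H2A.Zac was lost and gained within the same window (against 4.25% of all protein-coding genes). In RPS10, RPS15, RPS3A and RPSA the lost region was upstream and the gained one began at -8 bp or further downstream. In RPL18 both were upstream, with the gained region nearer to the TSS. The lost regions of RPL18 and RPSA reached into the window by 18 and 112 bp only.

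**Figure D3:**
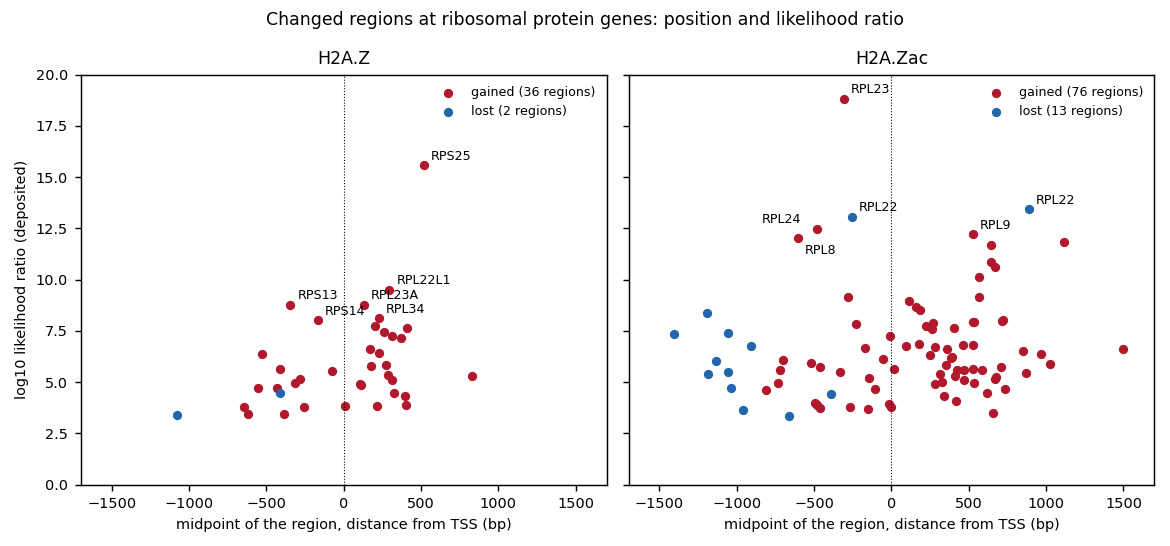
Changed regions at the 84 RP genes, with the distance of the region's midpoint from the TSS (x axis, bp) against the deposited log10 likelihood ratio (y axis) for H2A.Z (left, 36 gained in red and 2 lost in blue) and H2A.Zac (right, 76 gained and 13 lost); the 6 regions with the highest ratio per mark are named. Most red points lie to the right of the TSS below a ratio of 10, and both RPL22 points belong to an upstream start of that gene.

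The likelihood ratios of gained regions at RP genes were close to those in the windows of other genes. The median ratio was 5.45 for the 36 gained H2A.Z regions and 6.11 for the 76 gained H2A.Zac regions, against 4.99 and 5.99 over the windows of all protein-coding genes and 5.48 and 6.87 in the whole lists. The highest, 18.8 for H2A.Zac, was exceeded by 2185 of the 24844 gained H2A.Zac regions, which reach 125.7. A ratio of at least 10 was found in 1 of 36 gained H2A.Z regions (2.78%) and 9 of 76 gained H2A.Zac regions (11.8%) at RP genes, against 4.24% and 12.3% over all protein-coding windows.

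Among the 52 60S genes, 37 gained and 5 lost H2A.Zac (against 34.7% and 16.8% of all protein-coding genes), and 20 gained and 1 lost H2A.Z (against 13.0% and 6.63%). RPL23 (ENSG00000125691, chromosome 17, 38847860 to 38853764, minus strand), whose protein also binds MDM2, gained both marks on both sides of the TSS and had no unchanged H2A.Z region. Its upstream H2A.Zac region, from 38853794 to 38854354, had the highest ratio of all RP genes, 18.8. The other one, from 38852534 to 38853569, runs from intron 1 into intron 3 with a ratio of 7.97. The H2A.Z regions from 38853888 to 38854205, upstream, and from 38853256 to 38853700, over exon 1 and intron 1, had ratios of 5.17 and 5.35. RPL24 gained H2A.Zac upstream, from 101686825 to 101687599 on chromosome 3 (ratio 12.5), and over exon 2 and its flanking introns (5.85), while its H2A.Z region was unchanged. RPL9 had a gained H2A.Zac region from exon 2 to exon 3 (12.2) and 2 gained H2A.Z regions, 1 over exons 1 and 2 (5.85) and 1 upstream (4.69). RPL8, a protein of the peptidyl transferase region, gained H2A.Zac upstream (12.0) and over exons 1 and 2 (5.57) with no H2A.Z region listed. RPL23A had the third highest ratio for gained H2A.Z, 8.77, over exon 1 and intron 1, and RPL34 followed among the 60S genes with 8.10.

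RPL5 and RPL11 bind 5S rRNA together and can restrain MDM2. RPL11 gained H2A.Z from 45 to 478 bp downstream of the TSS (ratio 7.45) and H2A.Zac from 97 to 1347 bp (8.04). Next to them lay an unchanged H2A.Z region upstream and an unchanged H2A.Zac region over the TSS, from -695 to 96 bp. At RPL5 both H2A.Z regions, on either side of the TSS, were unchanged, and H2A.Zac was gained only from 460 to 894 bp (5.26). RPLP0, RPLP1 and RPLP2 form the stalk that recruits translation factors, and they differed among themselves. RPLP1 gained H2A.Z upstream, from -668 to -156 bp (5.65), and H2A.Zac from -472 to 694 bp (8.95). RPLP2 gained H2A.Zac upstream only, from -1093 to -314 bp (6.08), in a window that also holds the TSS of PIDD1 on the opposite strand. At RPLP0 all listed regions were unchanged.

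Among the 32 40S genes, 25 gained and 7 lost H2A.Zac, and 10 gained and 1 lost H2A.Z, with the same shares of all protein-coding genes as background (34.7, 16.8, 13.0 and 6.63%). RPS25 (ENSG00000118181, chromosome 11, 119015712 to 119018691, minus strand), a protein needed for internal ribosome entry, had the highest ratio for gained H2A.Z, 15.6, in a region from 119017993 to 119018355 that covers exon 1, intron 1 and part of exon 2 of the canonical transcript. H2A.Zac was gained at RPS25 over the same exon 1 (5.60) and upstream (5.73). An H2A.Z region from -537 to 223 bp, counted from the 5′ end of the gene record, was unchanged. Exon 1 of the canonical transcript starts 348 bp downstream of that end, so this region lay wholly upstream of exon 1. RPS14 (ENSG00000164587, chromosome 5, 150442635 to 150449739, minus strand), the gene lost in 5q- syndrome, was covered by 1 gained H2A.Z region of 1233 bp from 150449292 to 150450524 (8.01) and 1 gained H2A.Zac region of 1945 bp from 150448583 to 150450527 (8.50), both over the TSS, exon 1 and intron 1. An unchanged H2A.Zac region of RPS14, from -819 to -197 bp, overlapped the gained region. RPS7 gained H2A.Z over exons 1 to 3 (7.17) and H2A.Zac over exons 2 and 3 (10.9). RPS13 gained H2A.Z upstream (8.76) while its H2A.Zac regions were unchanged. RPS6, the S6 kinase substrate, had a gained H2A.Zac region from -1302 to 838 bp (7.82) and an unchanged H2A.Z region. An unchanged H2A.Zac region of RPS6, from 458 to 707 bp, lay inside the gained region. RPS27A, which encodes ubiquitin fused to a ribosomal protein, gained H2A.Zac from -183 to 1879 bp (6.53) over an unchanged H2A.Z region. Here too an unchanged H2A.Zac region, from 346 to 1298 bp, lay inside the gained region. RPSA gained H2A.Z from 19 to 625 bp (4.45) and H2A.Zac from 424 to 997 bp (5.74), and lost H2A.Zac from -1918 to -889 bp (7.37).

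At RPS19, the gene most often mutated in Diamond-Blackfan anemia, nothing was gained. An H2A.Zac region from -1070 to -750 bp was lost (chromosome 19, 41859185 to 41859505, ratio 6.75), and the regions of both marks over the TSS were unchanged. RPS19 lies on chromosome 19, where 12 RP genes are found, more than on any other chromosome. None of these 12 gained or lost H2A.Z, against 6.78% and 15.4% of the protein-coding genes of chromosome 19, while elsewhere 30 of 72 RP genes gained it (41.7%), against 13.5%, and 2 lost it, against 5.93%. H2A.Zac was gained at 6 of the 12 (against 31.8%) and lost at 5 (against 27.4%), and elsewhere it was gained at 56 of 72 (77.8%, against 34.9%) and lost at 7 (9.72%, against 16.0%). From 40 Mb to the end of the chromosome, where 1.58% of protein-coding genes gained and 18.8% lost H2A.Z and 21.2% gained and 27.7% lost H2A.Zac, there are 7 RP genes, of which 4 lost and 3 gained H2A.Zac. Among them, RPL13A, RPL18 and RPS19 lost H2A.Zac upstream, with ratios of 7.41, 5.41 and 6.75, RPL18 and RPS9 gained it with ratios of 5.50 and 5.63, and RPL28 had unchanged regions of both marks. RPS21, on chromosome 20 beyond 30 Mb, had unchanged regions of both marks. A change of the whole chromosome region and a change of these genes cannot be told apart in the lists, and the input libraries were not analysed here.

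The 7 genes whose symbol ends in L or L1 encode paralogs of ribosomal proteins. RPL22L1 (ENSG00000163584), the paralog of RPL22, gained both marks, with H2A.Z ratios of 9.51 in intron 1 and 4.95 upstream and an H2A.Zac ratio of 11.7 over the TSS, exon 1 and intron 1. RPL7L1 gained H2A.Z from 603 bp (5.31) and H2A.Zac from 590 bp (6.37) downstream. RPL26L1 gained H2A.Zac over exon 2 (11.8), and RPS27L gained it from 992 to 1998 bp (6.60). The gained regions of RPL26L1 and RPS27L reached into the window by 95 and 9 bp only. RPL3L, a paralog of striated muscle, had only a lost H2A.Zac region from -1428 to -841 bp (6.03). RPL10L and RPL39L, which are used in male germ cells, had no region of either mark.

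RPL4 and RPL36 also had no listed region, and with RPL39L they had one at another TSS definition. The 5′ end of the gene record, used as the TSS here, lies more than 1 kb from that of the canonical transcript at 9 RP genes, which are RPL3L, RPL4, RPL6, RPL7, RPL10, RPL22, RPL36, RPL39L and RPS29. Both lost H2A.Zac regions of RPL22, with ratios of 13.4 and 13.1, lie at the upstream start, 9794 bp from the canonical one. At the canonical start of RPL22, H2A.Z was gained from 13 to 295 bp (4.72) and H2A.Zac was gained on both sides (4.01 and 4.19). RPL7 changed in the same way, from a lost H2A.Zac region at the edge of the window (8.35) to gained H2A.Z (5.78) and H2A.Zac (12.6) at the canonical start. RPL36 gained H2A.Zac (6.60) and RPS29 gained it with a higher ratio (11.5 in place of 4.08) at the canonical start, while RPL4 and RPL39L had unchanged regions. RPL6 and RPL10 went the other way. Both H2A.Z (7.55) and H2A.Zac (8.73) were lost upstream of the canonical start of RPL6, and the gained H2A.Zac region of RPL10 (5.38) lay at the gene record start only, with 1 unchanged H2A.Z region and no H2A.Zac region at the canonical one. With the canonical TSS, 33 RP genes gained and 2 lost H2A.Z (against 13.9% and 6.53% of all protein-coding genes), and 64 gained and 9 lost H2A.Zac (against 36.6% and 16.6%).

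Neighboring genes and hosted RNAs were counted as well, and over all protein-coding genes 34.7% gained and 16.8% lost H2A.Zac and 13.0% gained H2A.Z. The window of 34 RP genes holds the TSS of another protein-coding or lncRNA gene, and of these 34 genes 29 gained and 2 lost H2A.Zac, against 33 gained and 10 lost among the other 50. H2A.Z was gained at 13 of the 34 and 17 of the 50. Small nucleolar RNAs lie within 28 RP genes, of which 23 gained H2A.Zac and 11 gained H2A.Z, and among the other 56 genes these numbers were 39 and 19. For example, the windows of RPS25, RPL9 and RPS27A hold the TSS of TRAPPC4, LIAS and CLHC1, in that order, on the opposite strand. Whether a region at a shared promoter belongs to the RP gene or to its neighbor cannot be told apart.

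The other genes of protein synthesis were counted in the same way, beside 34.7% gained and 16.8% lost for H2A.Zac and 13.0% gained and 6.63% lost for H2A.Z over all protein-coding genes. The 4 cytosolic ribosomal proteins outside the symbol rule all gained H2A.Zac and none changed in H2A.Z. Among them are FAU (4.82 and 4.04), which encodes a ribosomal protein fused to a ubiquitin-like protein, RACK1 (6.85) and RPL36AL (5.03). Of 78 mitochondrial ribosomal protein genes, 54 gained (69.2%) and 10 lost H2A.Zac, and 19 gained (24.4%) and 3 lost H2A.Z. MRPL22 had the highest H2A.Zac ratio among them, 20.3, in a region over the TSS. Of 43 translation factor genes, 29 gained (67.4%) and 9 lost H2A.Zac, and 14 gained (32.6%) and 1 lost H2A.Z. Here EIF1, which selects the start codon, gained H2A.Zac over the TSS with a ratio of 27.8, while EIF3K lost it upstream (16.9). EEF2, the translocation factor, lost H2A.Zac upstream (10.2) and gained it downstream (5.96). Of 44 ribosome biogenesis genes, 27 gained (61.4%) and 7 lost H2A.Zac (15.9%), and 14 gained (31.8%) and 4 lost H2A.Z (9.09%). Among them NOP10 lost H2A.Zac (29.1) and H2A.Z (7.97) upstream and gained both downstream (7.63 and 6.58).

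Proteasome subunits were taken as an unrelated complex that all cells need. Of these 33 genes, 27 gained (81.8%, against 34.7% of all protein-coding genes) and 7 lost H2A.Zac (21.2%, against 16.8%), and 6 gained (18.2%, against 13.0%) and 3 lost H2A.Z (9.09%, against 6.63%). The H2A.Zac share of the RP genes thus lay within the range of the mitochondrial RP, translation factor, biogenesis and proteasome lists, from 61.4 to 81.8% without the list of 4 genes, and their H2A.Z share of 35.7% was above all of these, close to the translation factors at 32.6%. Mitochondrial RP genes had unchanged H2A.Z over the TSS base more often, at 48 of 78 genes (61.5%) against 21 of 84 (25%), and 36.7% of all protein-coding genes lay in between. None of these differences between lists was tested.

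**Figure D4:**
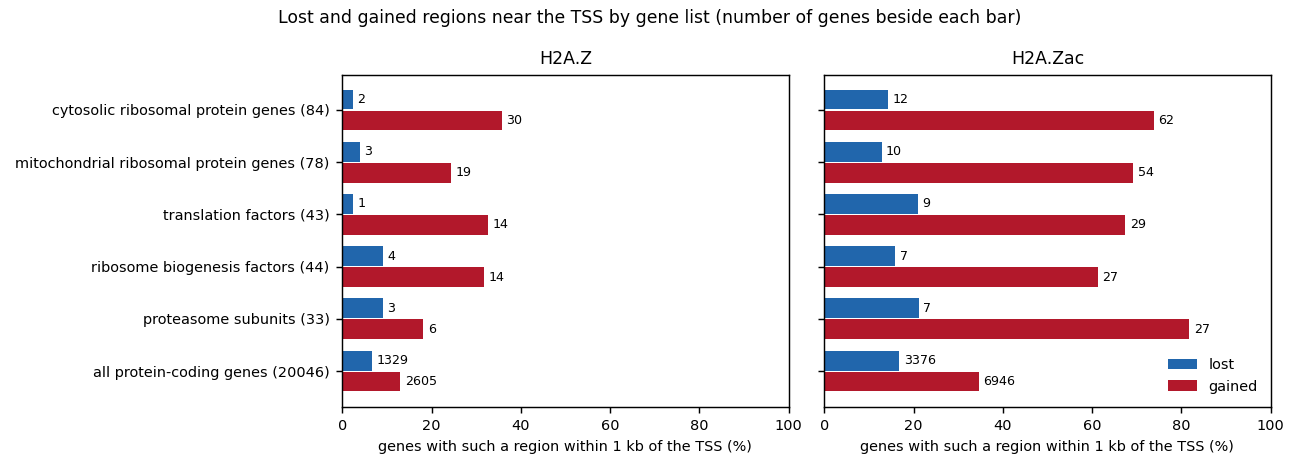
Share of genes (x axis, %) with a lost (blue) or gained (red) region within 1 kb of the TSS for H2A.Z (left) and H2A.Zac (right) in each gene list, with the number of genes in the list in parentheses and the number with such a region beside each bar. Gained H2A.Zac lies between 61.4 and 81.8% in all 5 lists drawn and at 34.7% over all protein-coding genes.

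Gained regions of the marks overlapped in a larger share at RP genes than in all protein-coding windows, but gained regions also covered more of the RP windows. Gained H2A.Zac covered 33.8% of the bases of the RP windows (against 13.8%) and gained H2A.Z 9.35% (against 3.43%). The overlap was not adjusted for this coverage. Counting an overlap from 25% of the region's length, 31 of the 36 gained H2A.Z regions lay on gained H2A.Zac (86.1%), against 65.7% of the gained H2A.Z regions in all protein-coding windows. In the other direction, 28 of 76 gained H2A.Zac regions lay on gained H2A.Z (36.8%, against 19.5%), 31 on unchanged H2A.Z (40.8%, against 73.5%) and 23 on no H2A.Z region (30.3%, against 18.2%). Some regions lay on both gained and unchanged H2A.Z and are counted in each. Both marks were measured in chromatin of the same clones, so their shared direction is not an independent repeat.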

How the data were processed

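Libraries of H2A.Z, H2A.Zac and input were mapped to hg38 by the authors (Bowtie2 2.4.5 and MACS2 2.2.7.1 in the submitters' processing notes). They merged the replicates before bdgdiff, which brought the 2 lines to 1 depth, and kept a region if 25% or more of it fell in peaks passing an IDR of 0.05. The only deposited value per region is a score, the log10 likelihood ratio, which is 3 or more in changed and below 3 in unchanged lists.

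Here, regions were joined by at least 1 bp to the window of 1 kb to each side of the 5′ end of each GENCODE release 44 gene record, with Python 3.11.15, numpy 2.4.6 and pandas 2.3.3. All 48285 gene-region pairs were the same as those of bedtools 2.31.1, and 300 of 300 simulated pairs were placed as made. Exons and introns are those of the canonical transcript, while distances in bp are counted from the 5′ end of the gene record unless stated. Figures were drawn with matplotlib 3.10.9. Neither past-the-end regions nor unknown chromosome names were found. The direction of the lists was checked at CCND1 (lost) and DACH1 (gained).

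Samples were grouped by line, WT or ΔTRRAP, from their labels. Shares are counts of genes with no test. The members and gene lists were chosen with earlier results of these data known. Genes were named by role, by the highest ratio per mark and direction (the first 5), for changes of both marks or in both directions, for no region, or for chromosomes 19 and 20; examples from the other lists and genes with distant TSS definitions were chosen after their values were seen. Alternatives were other windows, cutoffs, widths, overlaps, TSSs and members. Signal tracks, inputs and gene expression were not analysed here. Values of a few single genes that the naming rule covers are not reported here.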

Additional observations from a re-analysis of the deposited data

How the results depend on the processing

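Of 62 counts of RP genes obtained under 11 alternatives, 44 were within 1.5 times the reported count. With a likelihood ratio of at least 10, gained H2A.Z was left at 1 gene and gained H2A.Zac at 9, lost H2A.Zac at 1 and lost H2A.Z at 0, and with a ratio of at least 5 lost H2A.Z was also at 0. These cutoffs have no value for unchanged regions, whose ratios are all below 3. When the region had to cover the TSS base, H2A.Z was gained at 7, lost at 0 and unchanged at 21 genes, and H2A.Zac was gained at 28, lost at 1 and unchanged at 48. With regions of at least 500 bp only, H2A.Z was gained at 10 and lost at 0 genes, and H2A.Zac was lost at 7. In a window of 500 bp to each side, H2A.Z was lost at 1 and H2A.Zac at 2 genes, and with at least 25% of the region inside the window H2A.Z was lost at 1. Without the 9 genes whose TSS definitions lie over 1 kb apart, an alternative chosen after seeing the data, lost H2A.Z was at 1. These alternatives keep fewer regions or fewer genes by construction. Gained genes outnumbered lost genes in both marks under all 11 alternatives. With the main settings this order also held over all protein-coding genes, of which 34.7% gained and 16.8% lost H2A.Zac and 13.0% gained and 6.63% lost H2A.Z. The counts under the alternatives are given without shares of all genes, so they do not show whether the difference from other genes was kept. No paired analysis was possible because the lists hold merged replicates, and for the same reason no replicate could be left out. The depth of the libraries is unknown, which limits what a missing region can say.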
